A study of Mus musculus with 6 samples.

Results

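The genes described here encode nuclear-encoded subunits of oxidative phosphorylation, with a few related genes that share their names. They were chosen by symbol, from the prefixes Nduf, Sdha, Sdhb, Sdhc, Sdhd, Uqcr, Cox4, Cox5, Cox6, Cox7, Cox8 and Atp5, with a summed count of at least 30 over the 6 libraries. This gave 86 of the 23224 genes in the deposited table, out of 92 symbols that matched by name. Subunits made up 77 of the 86, with 36 in complex I, 4 in complex II, 8 in complex III, 14 in complex IV and 15 in complex V (Ndufa4 and Ndufa4l2 were counted under complex IV). The other 9 were 4 complex I assembly factors (Ndufaf), 2 complex II assembly factors (Sdhaf), the complex V-named factors Atp5s and Atp5sl, and Cox4nb. Cox4nb is an older symbol of Emc8, which encodes a subunit of a protein insertion complex of the endoplasmic reticulum and matched by name alone. The 6 symbols under the minimum were all isoforms of complex IV subunits. Cox4i2 held 17 counts in all, Cox6a2 14, Cox7a1 5 and Cox8b 2, while Cox7b2 and Cox8c were at 0 in every library. Just inside the minimum was Ndufa4l2, with 30 counts.

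The libraries were bulk RNA sequencing of dendritic cells (DC) sorted live from MC57-SIY tumors, 7 days after subcutaneous implantation in C57BL/6 mice. The MC57 cells come from a mouse fibrosarcoma and SIY is a model peptide antigen, so every group came from hosts carrying the same tumor. The 3 groups of 2 libraries were CD103+ DC1 from Rag2-/- hosts (replicates 2 and 3), ISG+ DC from Rag2-/- hosts (replicates 2 and 3) and ISG+ DC from WT hosts (replicates 1 and 2). Hosts without Rag2 make no mature lymphocytes of the T and B lineages. CD103+ DC1 are a conventional DC type known for cross-presentation, and the labels name ISG+ DC without the sort gate or the age of the animals. The labels say that tumors were pooled and that 2 independent experiments were done, so a library is a pool and not 1 animal. The 2 comparisons were Rag2-/- ISG+ DC against Rag2-/- CD103+ DC1, and WT ISG+ DC against Rag2-/- ISG+ DC. They share the Rag2-/- ISG+ DC libraries. Here higher and lower always refer to the group named first. DC1 of WT hosts were not analysed here, so cell type and host could not be tested together.

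Oxidative phosphorylation takes place in the inner mitochondrial membrane. Complex I (NADH dehydrogenase) and complex II (succinate dehydrogenase) pass electrons to ubiquinone, complex III passes them on to cytochrome c, and complex IV (cytochrome c oxidase) hands them to oxygen. Complexes I, III and IV pump protons, and complex V (ATP synthase) uses the resulting gradient to make ATP. Complex II also belongs to the tricarboxylic acid cycle and is the 1 complex built wholly from nuclear genes. In DC, activation through pattern receptors is known to shift cells from respiration towards glycolysis. The table holds 0 mitochondrially encoded genes, so for complexes I, III, IV and V the measurements cover nuclear-encoded subunits only. Nuclear-encoded subunits with other symbols, such as Cyc1 of complex III and Usmg5 of complex V, were not chosen.

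Promoters of these genes are known for binding sites of the transcription factors NRF1, GABPA (an ETS factor), YY1 and SP1. The RefSeq promoter table (GRCm38.p6, a later build than the mm9 of the deposited counts) held 73 of the 86 genes, each as the 250 bases before and 50 after the start. Both strands were searched for GCGCA and GCGC with any 1 base between them (NRF1), CCGGAAG (GABPA), AAGATGGCG (YY1) and GGGGCGG (SP1). NRF1 letters were found in 17 of the 73 promoters (23.3%, against 4.78% of all 27025 promoters in the table). GABPA letters were found in 18 (24.7%, against 9.12%), YY1 letters in 7 (9.59%, against 1.49%) and SP1 letters in 24 (32.9%, against 23.4%). A match describes the letters and shows no binding. The windows printed below were chosen to put genes with different values in these libraries side by side. For Uqcr11 and Atp5e both Rag2-/- ISG+ DC libraries lay under both CD103+ DC1 libraries, whereas for Sdhd, of complex II, the groups overlapped. Neither Uqcr11 nor Atp5e passed the test between DC types. Without CD103+ DC1 replicate 3 their log2 fold changes were -0.17 and -1.07. Each is 120 bases upstream of the start, read on the gene's strand, with motif matches in capitals. The Uqcr11 window lies at chr10:80406822-80406941 (minus strand) and holds 1 GABPA match. The Atp5e window lies at chr2:174464161-174464280 (minus strand), from 179 to 60 bases before the start, with 1 SP1 and 1 GABPA match. The Sdhd window lies at chr9:50603850-50603969 (minus strand) and holds 1 NRF1 and 1 GABPA match.
Uqcr11: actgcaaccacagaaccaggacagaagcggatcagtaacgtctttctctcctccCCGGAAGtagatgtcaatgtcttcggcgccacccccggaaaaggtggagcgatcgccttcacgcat
Atp5e: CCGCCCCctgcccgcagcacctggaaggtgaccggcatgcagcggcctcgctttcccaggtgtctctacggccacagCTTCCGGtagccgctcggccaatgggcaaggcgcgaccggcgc
Sdhd: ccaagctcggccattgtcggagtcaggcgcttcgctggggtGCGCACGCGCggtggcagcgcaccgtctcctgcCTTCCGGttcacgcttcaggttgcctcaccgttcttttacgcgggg

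All 3 windows hold the GABPA letters, on one strand or the other. Between the 2 DC types the median log2 fold change was -0.50 for the 18 members with a GABPA match and -0.43 for the 55 without one. It was -0.37 for the 17 members with an NRF1 match and -0.52 for the 56 without one. For YY1 the medians were -0.66 for 7 members with and -0.43 for 66 without a match, and for SP1 they were -0.32 for 24 with and -0.45 for 49 without. These differences were not tested.

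The libraries held 6023510 to 15368616 estimated counts each, with the lowest total in CD103+ DC1 replicate 3. That library stood apart in other ways. The RNA gene Rpph1 took 1.11% of its counts against 0.303% to 0.383% elsewhere, and 80 cytosolic ribosomal protein genes took 4.28% against 2.33% to 3.01%. All 8 DC1 markers (such as Xcr1, Clec9a and Batf3) were lower in Rag2-/- ISG+ DC than in CD103+ DC1, and 7 of the 8 passed the test. The summed DC1 marker level was 2255 to 3352 CPM (counts scaled to library size by the TMM method) in CD103+ DC1 and 198 to 281 CPM in the 4 ISG+ DC libraries. Of 7 CD11b+ DC markers 6 rose (122 to 146 CPM against 2400 to 3173 CPM). Macrophage and monocyte markers moved with them, since 9 of 11 rose, and their sum was 346 to 432 CPM in CD103+ DC1, 2048 and 3405 CPM in Rag2-/- ISG+ DC and 6698 and 7081 CPM in WT ISG+ DC. Of 11 fibroblast and fibrosarcoma markers tested 1 rose, Fn1, which macrophages are also known to express (624 and 448 CPM in CD103+ DC1, 2508 to 5685 CPM in ISG+ DC). The other 11 of the 12 listed summed to 1232 and 517 CPM in CD103+ DC1, 1163 and 694 CPM in Rag2-/- ISG+ DC and 480 and 58.7 CPM in WT ISG+ DC. T, B and NK cell markers summed to 7.51 to 36.3 CPM in every library, with Ms4a1 and Klrb1c at 0 throughout. The part of these other cells in the results below was not tested. Rag2 itself had 39, 11, 40 and 2 estimated counts in the Rag2-/- libraries and 0 in both WT libraries. Reads over a part that the allele keeps would still count, and which part they cover was not analysed here, so these counts do not check the host labels and hosts are named as labelled.

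None of the 85 members that could be tested changed between ISG+ DC and CD103+ DC1 of Rag2-/- hosts, whereas 488 of all 13223 genes tested did (3.69%). The test was edgeR's quasi-likelihood F test, p-values were adjusted by Benjamini-Hochberg over all 13223 genes, and the threshold was 0.05. Of all genes 2.83% rose and 0.862% fell. The smallest member value was 0.083, for the complex I subunit Ndufa12. At an unadjusted p under 0.05 there were 11 members lower (12.9%, against 6.11% of all genes) and 0 higher (against 8.8%). DESeq2, run as an alternative, had 4 of 86 members fall (4.65%, against 2.53% of all genes): Ndufa12, Atp5s, Cox6c and Ndufb2. Of these, Atp5s had counts in CD103+ DC1 alone. The log2 fold change was below 0 for 58 of 85 members (68.2%, against 50.7%). Both ISG+ DC libraries lay under both CD103+ DC1 libraries for 25 members (29.4%, against 22.0%) and above them for 5 (5.88%, against 23.9%). The median log2 fold change was -0.43 for the members and -0.02 for all genes tested. The subunits and related genes summed to 4385 and 6871 CPM in CD103+ DC1, 3759 and 4136 CPM in Rag2-/- ISG+ DC and 4356 and 4332 CPM in WT ISG+ DC. The highest sum was that of CD103+ DC1 replicate 3, while CD103+ DC1 replicate 2 lay next to the WT ISG+ DC libraries. In bulk samples, fewer cells of a type and less RNA per cell cannot be told apart.

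**Figure D1:**
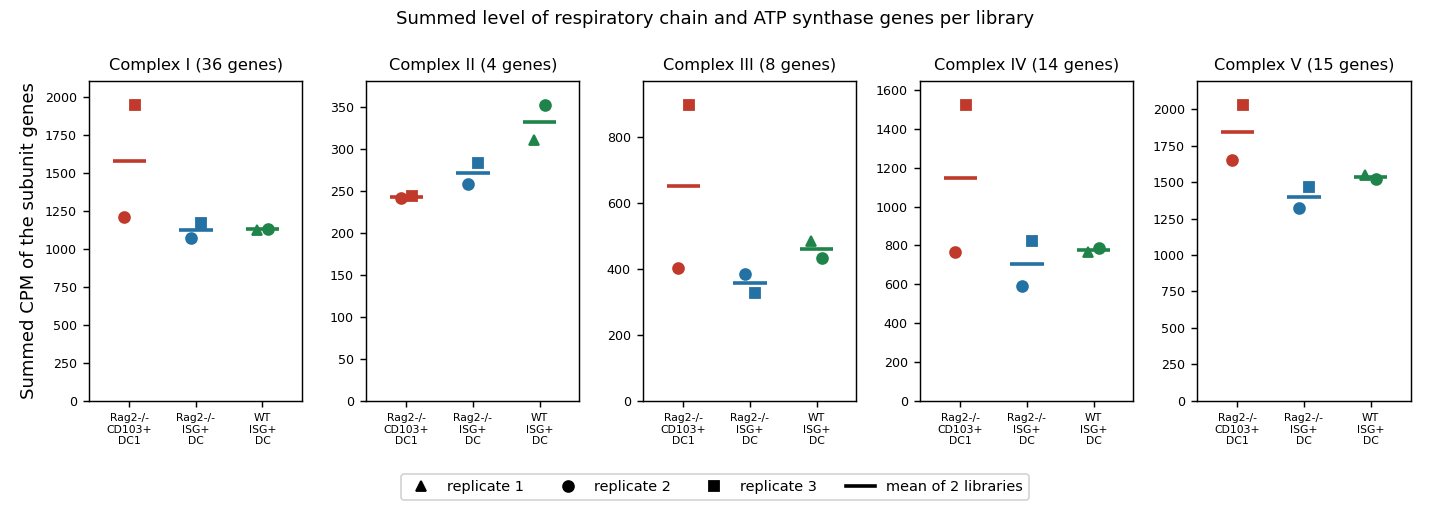
Summed level of the subunits of each complex (CPM, linear axis from 0) in each of the 6 libraries, with a point per library and a line at the mean of the 2 libraries of a group. CD103+ DC1 replicate 3 is the highest point for complexes I, III, IV and V, and for complex II it lies at 243 CPM, under all 4 ISG+ DC libraries.

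Within complex I the lower values were mostly among accessory subunits. The 7 core subunits, which carry the flavin and the iron-sulfur clusters, summed to 304 and 295 CPM in CD103+ DC1, 265 and 321 CPM in Rag2-/- ISG+ DC and 261 and 313 CPM in WT ISG+ DC. These ranges overlap in all 3 groups, and the core's median log2 fold change between DC types was 0.10, with 2 of 7 below 0. The 29 accessory subunits, which surround and stabilise the core, summed to 904 and 1656 CPM in CD103+ DC1 against 805 and 854 CPM in Rag2-/- ISG+ DC. Their median was -0.62, with 20 of 29 below 0. Without CD103+ DC1 replicate 3 the medians were 0.25 for the core and -0.03 for the accessory subunits, with 16 of 29 of the latter below 0. Core transcripts ran from 870.5 to 2625.5 bases and accessory ones from 419 to 2447.5 bases. Over all genes tested with a known length, the median log2 fold change was -0.43 under 700 bases and 0 at 1500 bases or more. The difference between the 2 sets, and the part of transcript length in it, was not tested.

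Ndufa12, an accessory subunit of the electron-input arm, measured 38.2 and 73.3 CPM in CD103+ DC1, 13.9 and 10.2 CPM in Rag2-/- ISG+ DC and 12.9 and 29.6 CPM in WT ISG+ DC. All 4 ISG+ DC libraries were under both CD103+ DC1 libraries. The means were 55.8 ± 24.8 CPM against 12.1 ± 2.62 CPM (SD, n = 2 each), and the log2 fold change was -2.21 ± 0.60 (SE) with an edgeR adjusted p of 0.083. Ndufb2, a small subunit of the membrane arm, measured 8.98 and 7.37 CPM in CD103+ DC1, 1.13 and 0.292 CPM in Rag2-/- ISG+ DC and 8.76 and 4.99 CPM in WT ISG+ DC. The Rag2-/- ISG+ DC libraries were lowest, apart from all the others, at an edgeR adjusted p of 0.28. Ndufb11, another membrane-arm subunit, had replicates close to each other in CD103+ DC1, at 48.5 and 47.3 CPM, against 16.7 and 25.2 CPM in Rag2-/- ISG+ DC and 32.4 and 36.6 CPM in WT ISG+ DC. Its groups did not overlap either, and its log2 fold change was -1.19 ± 0.46 (edgeR adjusted p = 0.24).

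Ndufs5, an accessory subunit on the intermembrane-space side, was listed at 0 in Rag2-/- ISG+ DC replicate 3 but at 19.0 CPM in replicate 2, against 37.6 and 93.0 CPM in CD103+ DC1. WT ISG+ DC had 19.4 and 16.2 CPM, so the 0 stood apart from all other libraries. Of the core subunits, Ndufs1 (the largest, with iron-sulfur clusters) measured 81.5 and 27.7 CPM in CD103+ DC1, 31.7 and 31.3 CPM in Rag2-/- ISG+ DC and 63.8 and 40.5 CPM in WT ISG+ DC. Here CD103+ DC1 replicate 3 was the lowest library and replicate 2 the highest. Ndufv1, which binds NADH, measured 37.0 and 64.6 CPM in CD103+ DC1, 30.7 and 56.1 CPM in Rag2-/- ISG+ DC and 50.8 and 49.1 CPM in WT ISG+ DC, and its groups overlapped. Ndufa8, an accessory subunit, had the greatest positive log2 fold change of all members between DC types (1.07 ± 0.58, edgeR adjusted p = 0.44), from 16.5 and 11.1 CPM to 29.8 and 28.2 CPM.

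The 4 complex I assembly factors had low and scattered values. Ndufaf2 measured 8.84 and 39.2 CPM in CD103+ DC1 against 8.88 and 4.30 CPM in Rag2-/- ISG+ DC. Their summed level was 31.5 and 57.9 CPM in CD103+ DC1 and 23.2 to 35.9 CPM over the 4 ISG+ DC libraries.

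In complex II all 4 subunits had a log2 fold change above 0 between DC types over all libraries (0.06 to 0.24, median 0.16). That count depended on both CD103+ DC1 libraries. Without replicate 2, Sdhd (-0.34) and Sdhc (-0.0035) were below 0 and the median was 0.10, and without replicate 3, Sdhb (-0.24) was below 0 and the median was 0.35. Sdha, the flavoprotein that oxidises succinate, measured 130 and 126 CPM in CD103+ DC1, 152 and 139 CPM in Rag2-/- ISG+ DC and 169 and 191 CPM in WT ISG+ DC. The 3 groups did not overlap and stood in that order, with the replicates of each close together. The log2 fold change between DC types was 0.18 ± 0.26 with a 95% interval from -0.41 to 0.76 (edgeR adjusted p = 0.85), which leaves out a 2-fold difference in either direction. Sdhb, the iron-sulfur subunit, measured 58.3 and 29.6 CPM, then 44.8 and 52.6 CPM, then 51.1 and 99.4 CPM in the same order of groups. The membrane anchors Sdhc (25.7 and 36.5 CPM in CD103+ DC1, 32.9 and 40.3 CPM in Rag2-/- ISG+ DC) and Sdhd (26.5 and 50.5 CPM, 28.8 and 51.5 CPM) also overlapped between groups. The 4 subunits summed to 241 and 243 CPM in CD103+ DC1, 258 and 283 CPM in Rag2-/- ISG+ DC and 310 and 352 CPM in WT ISG+ DC. A difference between complex II and the other complexes was not tested.

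Complex III had the lowest median among the 5 complexes, -0.80, with 7 of its 8 subunits chosen by symbol below 0. Cyc1, a complex III subunit outside that choice, measured 21.9 and 24.3 CPM in CD103+ DC1 and 30.9 and 33.8 CPM in Rag2-/- ISG+ DC. Its log2 fold change was 0.48 ± 0.50 (edgeR adjusted p = 0.75). Uqcrb, a small subunit next to the ubiquinone site, measured 73.7 and 334 CPM in CD103+ DC1, 87.6 and 40.0 CPM in Rag2-/- ISG+ DC and 98.8 and 103 CPM in WT ISG+ DC. The groups overlapped, because CD103+ DC1 replicate 2 was under 3 of the ISG+ DC libraries while replicate 3 was above all of them. The log2 fold change of -1.67 ± 0.60 had an edgeR adjusted p of 0.20. Uqcr11, a small supernumerary subunit, measured 15.5 and 60.5 CPM in CD103+ DC1, 12.4 and 14.8 CPM in Rag2-/- ISG+ DC and 18.9 and 13.4 CPM in WT ISG+ DC. Both Rag2-/- ISG+ DC libraries were under both CD103+ DC1 libraries, of which replicate 2 lay close to the ISG+ DC values. Uqcr10, a further small subunit, measured 17.6 and 65.6 CPM in CD103+ DC1 and 15.7 to 19.0 CPM over the 4 ISG+ DC libraries, and its replicate 2 lay within that range.

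Of the larger complex III subunits, Uqcrc1, a core protein, measured 62.0 and 171 CPM in CD103+ DC1, 94.9 and 84.4 CPM in Rag2-/- ISG+ DC and 105 and 88.1 CPM in WT ISG+ DC. Uqcrc2, its partner core protein, went the other way between the same libraries, at 60.3 and 14.6 CPM in CD103+ DC1 and 39.7 to 57.4 CPM over the ISG+ DC libraries. Uqcrfs1, the Rieske iron-sulfur protein that passes electrons towards cytochrome c, measured 63.6 and 42.3 CPM in CD103+ DC1, 35.6 and 29.8 CPM in Rag2-/- ISG+ DC and 40.9 and 33.1 CPM in WT ISG+ DC. It was lower in all 4 ISG+ DC libraries, at -0.70 ± 0.43 between DC types (edgeR adjusted p = 0.51).

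Complex IV had a median of -0.43, with 11 of 13 tested subunits below 0. Cox6c, a small nuclear-encoded subunit around the catalytic core, measured 171 and 450 CPM in CD103+ DC1, 98.3 and 130 CPM in Rag2-/- ISG+ DC and 124 and 141 CPM in WT ISG+ DC. Every ISG+ DC library was under both CD103+ DC1 libraries. The means were 311 ± 197 CPM and 114 ± 22.5 CPM (SD, n = 2 each), with a log2 fold change of -1.44 ± 0.41 and an edgeR adjusted p of 0.099. Cox7b, another small subunit, measured 74.5 and 333 CPM in CD103+ DC1, 58.7 and 97.4 CPM in Rag2-/- ISG+ DC and 90.1 and 71.5 CPM in WT ISG+ DC, and only replicate 3 of CD103+ DC1 was outside the range of the rest. Cox4i1, a subunit with a regulatory role, measured 93.9 and 105 CPM, 69.0 and 103 CPM, and 115 and 120 CPM in the same order of groups. Its 95% interval between DC types ran from -0.92 to 0.49 on the log2 scale.

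Among complex IV isoforms and relatives, the ubiquitous forms held nearly all counts. Cox7a2l, a factor of respiratory supercomplexes, measured 75.5 and 73.3 CPM in CD103+ DC1, 53.2 and 90.2 CPM in Rag2-/- ISG+ DC and 55.6 and 112 CPM in WT ISG+ DC. Ndufa4, a subunit first assigned to complex I and now to complex IV, ran from 6.43 to 16.5 CPM over the 6 libraries, with overlapping groups. Its paralog Ndufa4l2 had all of its 30 counts in CD103+ DC1 replicate 3 (5.14 CPM) and failed the filter on low counts. Cox6b2, known from testis, measured 4.80 CPM in that library, 2.64 and 0.146 CPM in Rag2-/- ISG+ DC and 0 in the other 3 libraries.

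Complex V had a median of -0.37, with 11 of 15 subunits below 0. The catalytic subunits had narrow intervals. Atp5a1 (alpha) measured 441 and 498 CPM in CD103+ DC1, 368 and 419 CPM in Rag2-/- ISG+ DC and 363 and 398 CPM in WT ISG+ DC. All 4 ISG+ DC libraries were lower, by -0.25 on the log2 scale between DC types, with a 95% interval from -0.77 to 0.26. Atp5b (beta) measured 384 and 251 CPM, 234 and 319 CPM, and 323 and 253 CPM, and its groups overlapped. Atp5c1 (gamma, the rotating shaft) measured 135 and 167 CPM in CD103+ DC1, 102 and 85.3 CPM in Rag2-/- ISG+ DC and 115 and 126 CPM in WT ISG+ DC, without overlap between DC1 and ISG+ DC. Its log2 fold change was -0.69 ± 0.29 (edgeR adjusted p = 0.29). Atp5e (epsilon, a small part of the rotor stalk) measured 34.8 and 58.8 CPM, 19.6 and 12.9 CPM, and 27.0 and 11.5 CPM, at -1.52 ± 0.60 between DC types (edgeR adjusted p = 0.25). The genes Atp5g1, Atp5g2 and Atp5g3 encode the same mature c subunit of the rotor ring. Atp5g1 measured 10.8 to 24.5 CPM, Atp5g2 18.4 to 51.7 CPM and Atp5g3 12.2 to 49.5 CPM over the 6 libraries, with overlapping groups for each between DC types.

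Atp5s (Dmac2l in the current nomenclature), a coupling-factor relative outside the synthase itself, was found in CD103+ DC1 alone. It measured 5.52 and 6.51 CPM there and was at 0 in all 4 ISG+ DC libraries. It met the summed count minimum and the filter through CD103+ DC1 alone, so only a lower value in ISG+ DC could appear. Set against the limit of 3 counts over the Rag2-/- ISG+ DC group (0.101 CPM, counting error only), it was at least 59.3-fold lower in that group, but it did not pass (edgeR adjusted p = 0.22).

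**Figure D2:**
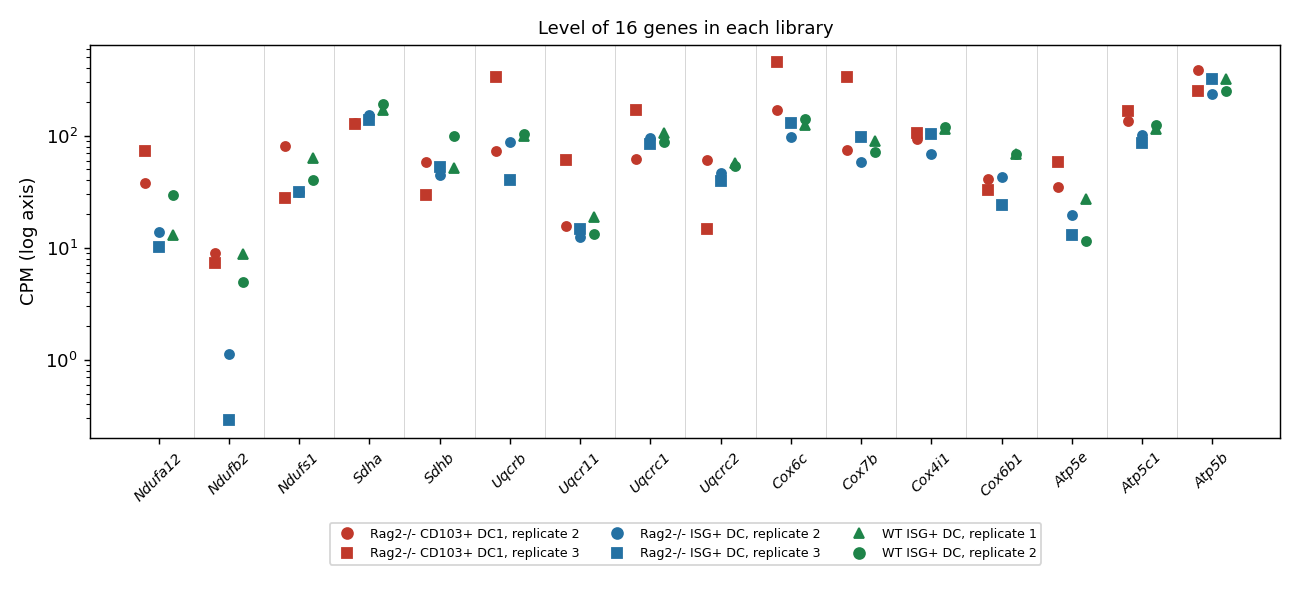
Level of 16 members in each library (CPM, log axis, 1 point per library, coloured by group and shaped by replicate). For Cox6c and Ndufa12 all ISG+ DC points lie under both CD103+ DC1 points, whereas for Uqcrb and Cox7b CD103+ DC1 replicate 2 lies among the ISG+ DC points.

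The lower values in ISG+ DC rested largely on 1 library. CD103+ DC1 replicate 3 was the highest of the 6 libraries for 45 of 85 members (52.9%, against 24.5% of all genes tested) and the lowest for 13 (15.3%, against 30.4%). It was the highest for 19 of 36 members in complex I, 6 of 8 in complex III, 6 of 13 in complex IV, 9 of 15 in complex V and 0 of 4 in complex II. The CD103+ DC1 replicates differed more than 2-fold for 36 of 85 members (42.4%, against 36.2%). The replicates of Rag2-/- ISG+ DC and those of WT ISG+ DC did so for 11 each (12.9%, against 23.0% and 25.2%). Without replicate 3, the median between DC types was -0.10, and 48 of 85 members were below 0. The medians by complex were then 0.00 for complex I, 0.35 for II, -0.18 for III, -0.06 for IV and -0.20 for V. Cox7b and Uqcrb were then near 0, at 0.09 and -0.19, whereas Ndufa12 was at -1.64 and Cox6c at -0.56. Without replicate 2, the median was -0.55, and 64 of 86 members were below 0. In these fits 1 library stands for CD103+ DC1 and is assumed to vary like the other groups. Leaving out Rag2-/- ISG+ DC replicate 2 or replicate 3 gave medians of -0.42 and -0.57.

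**Figure D3:**
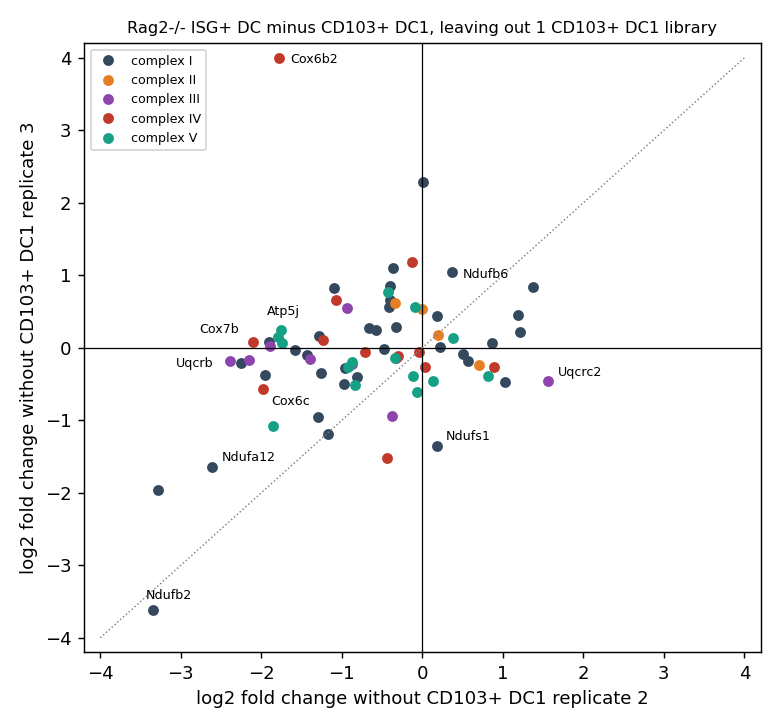
Log2 fold change of each subunit, Rag2-/- ISG+ DC minus CD103+ DC1, in the fit without CD103+ DC1 replicate 2 (horizontal axis) and in the fit without CD103+ DC1 replicate 3 (vertical axis), coloured by complex, with Cox6b2 drawn at the edge of the axis and equal values on the dotted line. Cox7b lies at -2.10 on the horizontal axis and 0.09 on the vertical, and Uqcrb at -2.39 and -0.19, while Ndufa12 is low on both, at -2.61 and -1.64.

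The gap between the CD103+ DC1 replicates was wider in members with short transcripts. The median log2 difference, replicate 3 minus replicate 2, was 0.81 for 32 members with transcripts under 700 bases, 0.34 for 30 from 700 to 1500 bases and 0.26 for 23 of 1500 bases or more. Over all genes with a known length the same medians were 0.54, 0.03 and -0.15. Between DC types the members' medians by length were -0.61, -0.53 and -0.20 over all libraries and -0.15, -0.08 and 0.08 without CD103+ DC1 replicate 3. Transcript lengths come from GENCODE on another build, and the part of RNA quality or library preparation in this gap was not tested.

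The other genes of respiration gave the following counts between DC types. None of 17 tricarboxylic acid cycle enzymes passed, with a median of -0.02. None of 19 assembly factors of complexes III to V with other names passed, and none of 14 regulators of mitochondrial biogenesis did. Of 13 electron carriers and partners of the chain, 2 fell and 0 rose, against 0.862% of all genes that fell. Atpif1, which inhibits ATP synthase when it runs in reverse, measured 356 and 1440 CPM in CD103+ DC1, 188 and 179 CPM in Rag2-/- ISG+ DC and 177 and 194 CPM in WT ISG+ DC. The 4 ISG+ DC libraries lay within a narrow range under both CD103+ DC1 libraries. The log2 fold change was -2.29 ± 0.51 (edgeR adjusted p = 0.033) and, without CD103+ DC1 replicate 3, -0.94 (adjusted p = 0.016). Cycs, which encodes cytochrome c, the carrier between complexes III and IV, measured 183 and 375 CPM in CD103+ DC1, 78.6 and 108 CPM in Rag2-/- ISG+ DC and 71.3 and 72.5 CPM in WT ISG+ DC. Its groups did not overlap, and it fell by 1.58 ± 0.37 on the log2 scale (edgeR adjusted p = 0.042), or by 0.95 without CD103+ DC1 replicate 3 (adjusted p = 0.092). Neither call held when either Rag2-/- ISG+ DC library was left out or when the 4 libraries compared were fitted alone, where the adjusted p-values were 0.080 to 0.24.

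Between WT and Rag2-/- hosts, none of the 85 members changed in ISG+ DC, where 73 of 13223 genes did (0.552%, with 0.287% higher and 0.265% lower in WT hosts). DESeq2 called 0 of 86 members here, against 3.43% of all genes. The smallest edgeR adjusted p among members was 0.44, for Cox6b1. At an unadjusted p under 0.05, 2 members were higher in WT hosts (2.35%, against 4.56% of all genes) and 0 lower (against 5.32%). The log2 fold change was below 0 for 32 members (37.6%, against 51.5%), and the median was 0.15 against -0.03 for all genes. Groups did not overlap for 18 members higher in WT hosts (21.2%, against 21.4%) and 9 lower (10.6%, against 23.1%). The medians by complex were 0.08 for complex I, 0.20 for II, 0.28 for III, -0.05 for IV and 0.36 for V.

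The 2 members past the unadjusted threshold were Cox6b1 and Ndufb2. Cox6b1, a complex IV subunit on the intermembrane-space side, measured 42.4 and 24.1 CPM in Rag2-/- ISG+ DC against 68.4 and 68.3 CPM in WT ISG+ DC, with 40.7 and 32.5 CPM in CD103+ DC1. The WT replicates were nearly equal and above all other libraries, at a log2 fold change of 1.04 ± 0.43 (edgeR adjusted p = 0.44). Ndufb2, with the values given above, was 3.25 ± 1.44 higher on the log2 scale in WT hosts (edgeR adjusted p = 0.49). Of its WT libraries, replicate 1 lay between the CD103+ DC1 libraries and replicate 2 under both. Further members had higher WT values without passing. Uqcrh, the hinge protein of complex III, measured 38.8 and 62.3 CPM in Rag2-/- hosts against 90.8 and 69.3 CPM in WT hosts (0.66 ± 0.40 on the log2 scale). Cox7a2, the ubiquitous form of its complex IV subunit, measured 14.3 and 7.07 CPM against 31.0 and 20.2 CPM (1.26 ± 0.68). Atp5l, the g subunit of the synthase membrane part, measured 45.3 and 32.3 CPM against 50.9 and 70.0 CPM (0.64 ± 0.42). Groups did not overlap for any of these 3 genes, and the CD103+ DC1 values of each (59.6 and 92.7 CPM, 31.1 and 14.4 CPM, 47.5 and 73.1 CPM) overlapped the WT range. In the other direction, Ndufs8, a core complex I subunit with iron-sulfur clusters, measured 17.4 and 20.4 CPM in Rag2-/- hosts and 4.83 and 7.89 CPM in WT hosts. Its groups did not overlap, at -1.57 ± 0.81 (edgeR adjusted p = 0.60). Of the lists outside the member set, the tricarboxylic acid cycle enzymes, assembly factors, electron carriers and biogenesis regulators, none had a gene that passed between hosts.

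**Figure D4:**
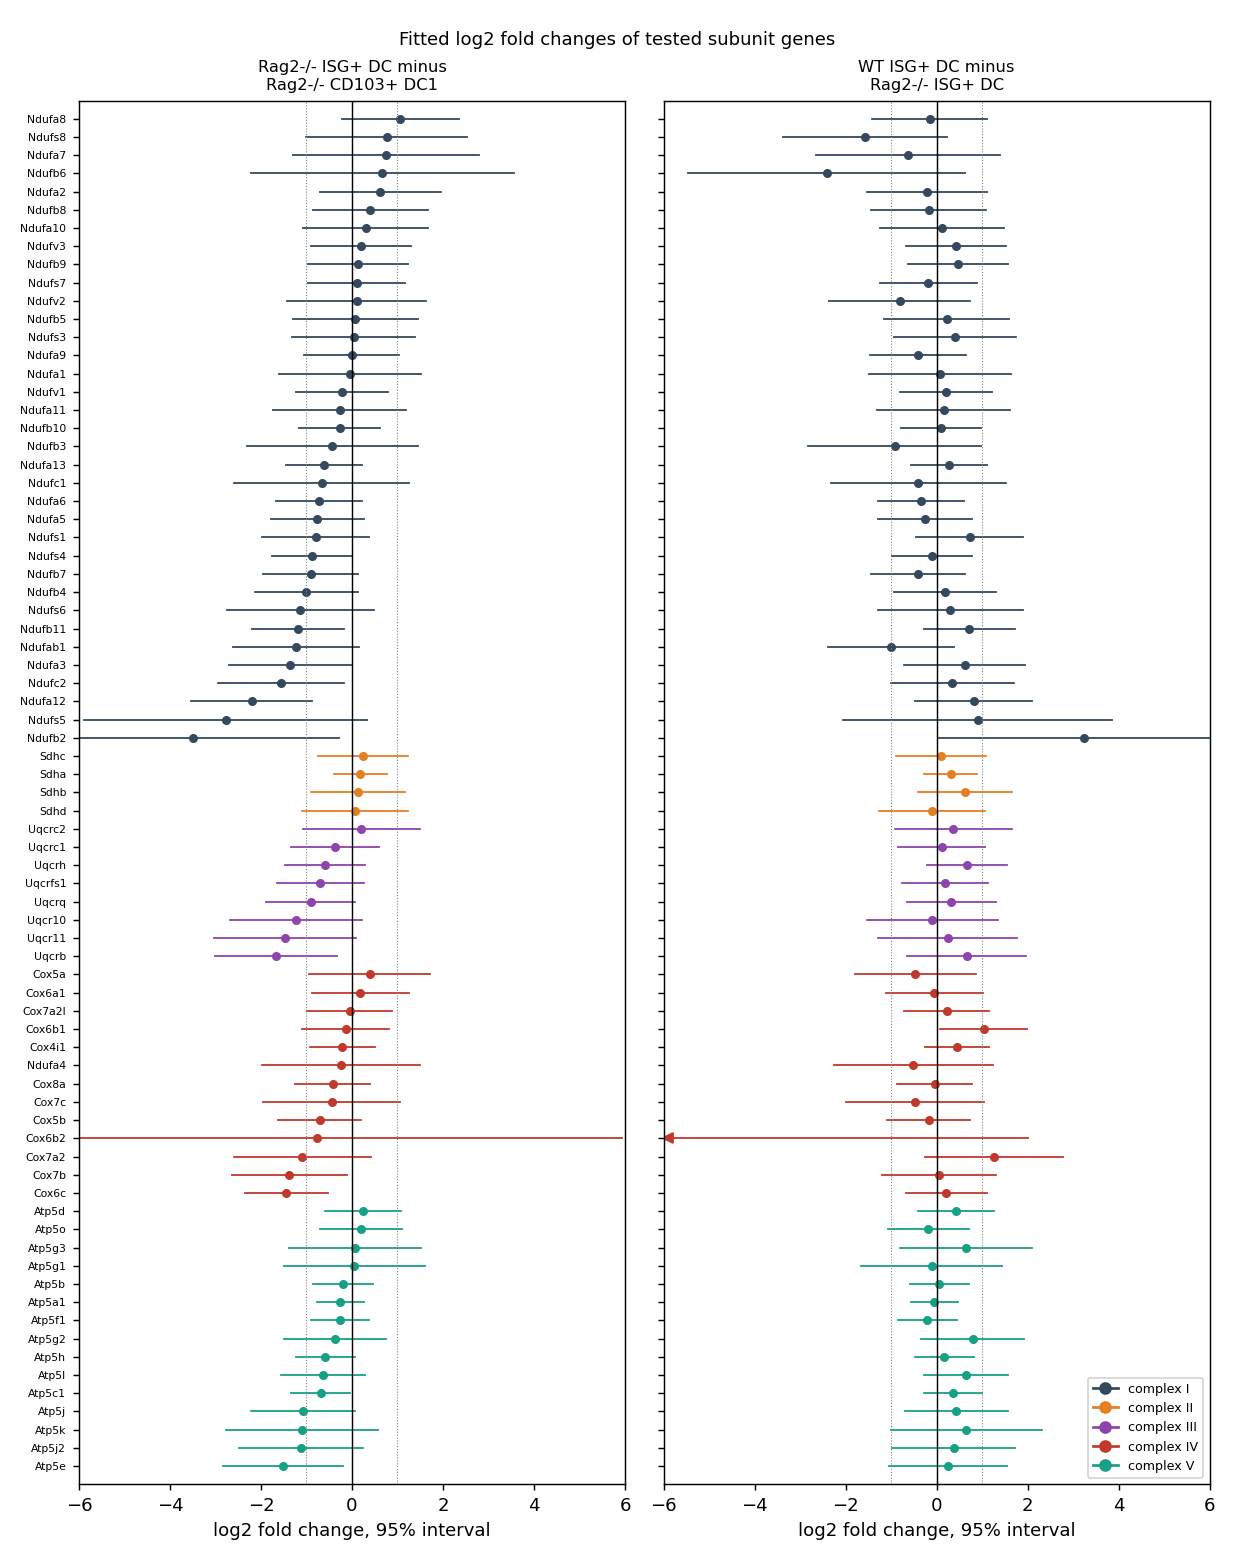
Log2 fold change of tested subunits with the 95% interval, ordered within complexes, for Rag2-/- ISG+ DC minus CD103+ DC1 and for WT minus Rag2-/- ISG+ DC, with intervals cut at -6 and 6 on the axis and an arrow for Cox6b2, whose value in the host comparison lies beyond it. In the comparison of DC types the point estimates of complex II lie above 0, and every interval of complex II spans 0. The point estimates of complex III lie below 0 except for Uqcrc2, and only the interval of Uqcrb leaves out 0. In the host comparison Ndufb2 stands out at 3.25 with a long interval.

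The size of difference these libraries could show varied between members. The median half-width of the 95% interval was 1.26 on the log2 scale between DC types and 1.25 between hosts, more than 2-fold in each direction. Between DC types the interval lay within 2-fold either way for 7 of 85 members, among them Atp5a1, Atp5b, Atp5f1, Cox4i1, Cox7a2l and Sdha, and within 4-fold for 50. Between hosts it lay within 2-fold for 10 members, among them Atp5a1, Atp5b, Atp5c1, Atp5f1, Atp5h, Cox8a, Ndufb10, Ndufs4 and Sdha, and within 4-fold for 63. For these genes a larger difference lies outside the interval, and for the rest a missing call shows no likeness between groups.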

How the data were processed

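The authors deposited a table of RSEM estimated counts per gene symbol for 6 libraries, not normalized, and 16.1% of its values are not whole. Per the submitters' processing notes, Bowtie 1.2.3 and RSEM 1.3.1 were used with mm9. The annotation, strand setting and read filters were not given in the sources used here. Per the labels' protocols the kit was a stranded total RNA kit for low input on a NextSeq instrument, while the molecule field names polyA RNA, which was not reconciled. Overlapping and antisense genes cannot be told apart where the strand setting is unknown. The members and gene lists were chosen with earlier results of these data known.

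The estimated counts, rounded, were tested with edgeR 4.0.16 in R 4.3.3 (filterByExpr by group, TMM factors, glmQLFit and glmQLFTest over all 6 libraries, 3 residual degrees of freedom, prior 7.34, two-sided, Benjamini-Hochberg adjustment over 13223 genes). The common biological coefficient of variation was 0.703. CPM values are TMM-scaled. Named are members that passed, the 2 with the smallest p per complex and comparison, a fixed set of catalytic and isoform genes, and passing genes of the other lists. Ndufs5, Ndufa8, Ndufaf2, Sdhd, Uqcr10, Uqcrc2, Cox6b2, Atp5a1, Atp5j, Atp5s and Cyc1 were chosen after their values were seen. So were other genes named because of their interval. Alternatives were DESeq2 1.42.0, other scaling, no filter on low counts, fewer libraries, a replicate block, and each library left out. The procedure was also run on counts simulated from the fitted spread. No library was set apart there, so that run cannot show how the procedure handles CD103+ DC1 replicate 3. Nothing in the labels says that the 2 libraries of a group came from separate animals beyond the 2 experiments. The p-values therefore set group differences against the spread between these libraries, shared over groups and genes, and not against a spread between animals. Limits from a count of 0 or 3 cover counting error only. Values of 1 member are not reported here by name; it is counted with its group and is left out of the plot of intervals.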

Additional observations from a re-analysis of the deposited data

How the results depend on the processing

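Between DC types, the 488 genes that differed became 297 with the 4 compared libraries alone, 1112 with DESeq2, 1087 with no filter on low counts and 1157 with ISG+ DC of both hosts against CD103+ DC1 (the last chosen after seeing the data). Members that fell, 0 in the main analysis, were 4 of 86 with DESeq2 (4.65%, against 2.53% of all genes). With no filter they were 6 of 86 (6.98%, against 2.53%): Uqcrb, Ndufs5, Cox6c, Cox7b, Ndufa12 and Atp5j. With both hosts they were 2 of 85 (2.35%, against 3.75%): Cox6c and Ndufa12. Between hosts, the 73 genes became 444 with 4 libraries, 564 with DESeq2 and 555 with no filter, and the members' median moved from 0.15 to 0.080 with library size alone. Replicate numbers were not shown to pair the libraries: same-numbered deviations had a correlation of -0.0024 over genes with 2 pairs. With replicate as a block, 659 genes differed between DC types. There 3 of 85 members fell (3.53%, against 1.85% of all genes): Ndufs5, Ndufa12 and Cox6c. No paired analysis was possible between hosts because they share 1 replicate number. The cause of these shifts was not tested.

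Leaving out 1 library at a time gave 278 to 2068 genes between DC types, 0 to 19 members that fell, 0 to 1 that rose and a member median from -0.57 to -0.10. Between hosts it gave 27 to 198 genes, 0 to 1 member that rose (Ndufs5, which is at 0 in 1 library) and a median from 0.0093 to 0.22. Of the genes named by rule, signs changed for those with ranges below, of which Cox7b had fallen with no filter. Further members changed sign between the fit without CD103+ DC1 replicate 2 and the fit without replicate 3. Among them were Uqcrc2 (1.57 and -0.46), Sdhd (-0.34 and 0.62), Uqcr10 (-1.90 and 0.03) and Atp5j (-1.75 and 0.25). Atp5j had also fallen with no filter. Between DC types the log2 ranges were -0.0035 to 0.53 for Sdhc, -0.24 to 0.71 for Sdhb, -1.35 to 0.18 for Ndufs1, -0.72 to 0.25 for Ndufv1 and -0.93 to 0.55 for Uqcrc1. They were -2.10 to 0.085 for Cox7b, -0.60 to 0.21 for Cox6b1, -0.53 to 0.050 for Cox4i1, -0.48 to 0.28 for Cox7a2l and -0.67 to 0.086 for Ndufa4. For Atp5b the range was -0.46 to 0.13, for Atp5g1 -0.54 to 0.77 and for Atp5g3 -0.39 to 0.81. Between hosts they were -0.055 to 0.24 for Sdhc, -0.17 to 0.70 for Ndufv1, -0.026 to 0.47 for Uqcr11, -0.026 to 0.23 for Uqcrc1, -0.27 to 0.46 for Cox7b and -0.37 to 0.65 for Cox7a2l. They were -0.15 to 0.30 for Atp5b, -0.51 to 0.72 for Atp5e, -0.53 to 0.49 for Atp5g1, -0.32 to 1.21 for Atp5g3 and -0.058 to 0.081 for Atpif1.

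For the genes named by rule, other sign changes between DC types were those of Atp5g1 (-0.00075 with DESeq2, -0.0021 with RLE factors and -0.00025 with both hosts). With both hosts Ndufs8 was at -0.026, Cox6b1 at 0.38, Atp5g2 at 0.024, Cox4i1 at 0.014 and Cox7a2l at 0.057. Between hosts, library size alone gave -0.025 for Cox7b, -0.014 for Atp5b and -0.064 for Atpif1. Of 600 single-gene values under these alternatives, 529 kept their direction and side of the threshold, 47 changed sign, 17 came to pass it and 7 no longer passed it (the latter for Atpif1 and Cycs). With groups of 2 libraries, differences under about 2-fold were outside the reach of most members, and larger ones also went without a call. Between DC types, Ndufa12 at 4.61-fold (edgeR adjusted p = 0.083) and Ndufb2 at 11.3-fold (edgeR adjusted p = 0.28) did not pass.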
